A study of Homo sapiens with 2 samples.

Results

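The 10 enzymes described here make serine, move its one-carbon unit through folate, or make asparagine. They are PHGDH, PSAT1, PSPH, SHMT1, SHMT2, MTHFD1, MTHFD1L, MTHFD2, ALDH1L2 and ASNS. They were chosen by gene symbol, as the genes whose array probes carry 1 gene symbol that belongs to this set, and all 10 were measured, of 18355 genes in all. They were read by 12 probes, 2 each for PSPH and MTHFD2 and 1 for each of the other 8, and the probes of a gene were averaged. Gene expression was measured in K562 cells after imatinib. K562 is a human leukaemia line driven by the kinase BCR-ABL1, and imatinib, an inhibitor of that kinase, was given at 2 µM for 6 hours. Both cultures received imatinib. The first was grown with erythropoietin (EPO), the cytokine of red cell formation. The second has a label that names no EPO and is taken from the growth protocol as grown without it. No source used here gives the amount of EPO or how long it was present, and K562 cells without imatinib were not analysed here. There was 1 whole-transcript Affymetrix array per group, so no value below has a replicate error and no difference was tested.

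Serine is built from an intermediate of glycolysis by PHGDH, PSAT1 and PSPH in turn. Serine hydroxymethyltransferase then splits serine into glycine and a one-carbon unit bound to tetrahydrofolate, in the cytosol through SHMT1 and in mitochondria through SHMT2. The mitochondrial enzymes oxidise the unit to formate, and MTHFD1 in the cytosol loads formate back onto folate for purine and thymidylate synthesis. In many cells several of these genes, and ASNS, are transcribed under ATF4, the transcription factor of the amino acid response, and dividing cells rely on them for nucleotides.

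Promoter windows from RefSeq (GRCh38.p14), which run from 250 bases before to 50 bases after a gene's start, were matched by symbol for 7 of the 10 enzymes (11 windows, since ASNS has 2 and MTHFD1L has 4). PSPH, SHMT2 and ALDH1L2 were not matched. They were searched on both strands for TGATGNAA, the core of the C/EBP-ATF response element that ATF4 binds, and for CACGTG, the E-box bound by MYC and related factors. The first motif was present in 3.62% of all 35116 windows (4.46% of 27305 genes) and the second in 7.26% (8.77% of genes), and neither overlapped the other in the enzymes. The response element letters were found in ASNS and MTHFD1L, and the E-box letters in MTHFD1 and MTHFD1L. The sequences are shown because these are the windows with a match. The ASNS sequence is the 250 bases before the first listed start (chr7:97872409-97872658, minus strand), and the MTHFD1L sequence is the 30 bases around the match (chr6:150866346-150866375, plus strand). The MTHFD1 sequence is the 60 bases before the start (chr14:64388293-64388352, plus strand). Capitals mark the matched letters, and sequences read 5′ to 3′ on the strand of the gene.
ASNS: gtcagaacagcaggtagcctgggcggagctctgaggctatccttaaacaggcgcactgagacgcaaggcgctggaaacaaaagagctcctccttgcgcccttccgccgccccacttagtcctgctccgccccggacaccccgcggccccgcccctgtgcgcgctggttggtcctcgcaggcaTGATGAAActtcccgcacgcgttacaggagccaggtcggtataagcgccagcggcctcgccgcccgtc
MTHFD1L: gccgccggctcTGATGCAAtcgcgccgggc
MTHFD1: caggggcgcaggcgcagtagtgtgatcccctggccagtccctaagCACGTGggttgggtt
The ASNS match lay at bases -68 to -61 before the start. From its first 3 listed starts the MTHFD1L match lay at -129 to -122, at bases 25 to 32 of the transcript and at -90 to -83. The MTHFD1 match lay at -15 to -10, and the E-box letters of MTHFD1L, outside the stretch shown, lay at -154 to -149, -1 to 5 and -115 to -110 from its first 3 listed starts. A match is a run of letters and does not show that a factor was bound in these cells.

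The deposited values are on a log scale, read as log2, and are centred on a baseline that is not given, so each one is a deviation from that baseline and not an expression level. Subtracting the value without EPO from the value with EPO removes the baseline, and this difference is the quantity compared below. For the same reason the labelled cell type could not be checked by the level of its markers. Of the 8 markers of K562 cells, 5 had a probe of their own, with differences from -0.040 for HBZ to 1.02 for TFRC. Of the 6 genes listed as markers of other cell types, 5 had one. At least 2-fold higher were 3 of these, against 6.2% of all genes: PTPRC at 1.10, LYZ at 1.05 and EPCAM at 1.25. PTPRC is a general blood cell gene and K562 is itself a leukaemia line, so PTPRC does not set other cells apart here. CD3D stood at -0.67 and COL1A1 at -0.57. In RNA from a whole culture, fewer cells of a kind and less RNA per cell cannot be told apart, and the part of other cells in the results was not tested.

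The genes of the whole array were not spread evenly around 0. The standard deviation across genes was 0.128 with EPO and 0.429 without EPO. The median difference was -0.047 over all genes, 0.48 over 264 genes of cellular machinery (subunits of the proteasome, nuclear pore, RNA polymerase II, spliceosome, respiratory chain and mitochondrial ribosome) and -0.32 over 460 genes of families that most tissues keep silent, such as olfactory receptors. The share of this split in the results on the enzymes was not tested, and the machinery median is given beside them as a second reference.

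All 10 enzymes had a higher value with EPO than without it, against 45.4% of all genes and 77.7% of machinery genes. The enzymes were between 1.26-fold (MTHFD1L) and 2.64-fold (PHGDH) higher, although MTHFD1L turned lower when the machinery median was subtracted. At least 2-fold higher were 5 of the 10 (PHGDH, PSPH, SHMT1, MTHFD1 and MTHFD2), against 6.2% of all genes, 6.61% of protein-coding genes and 14.4% of machinery genes. The set was chosen with earlier results of these data known, so the excess over these shares is a description only. At least 2-fold lower were 0 of the 10, against 0.899% of all genes. At a threshold of 1.5-fold, 9 of the 10 were higher, all but MTHFD1L, against 18.1% of all genes. The median difference of the 10 was 1.05 on the log2 scale (2.07-fold), and 0.57 with the machinery median subtracted. With that subtraction 0 of the 10 stayed past 2-fold (0.67% of all genes did), and 9 of the 10 stayed above 0. The machinery genes then have a median of 0 by construction, and the share of all genes above 0 was not counted.

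**Figure D1:**
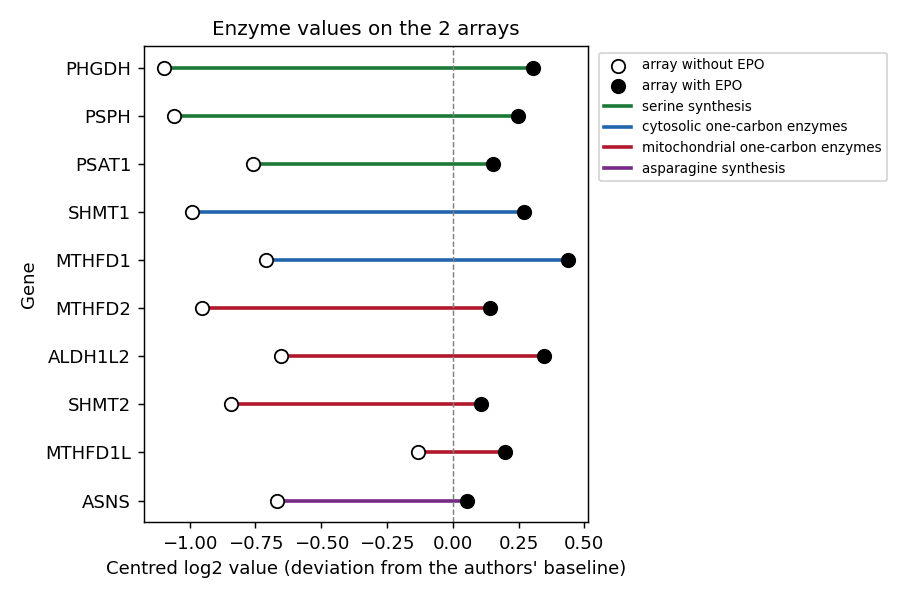
Centred log2 values (horizontal axis) of the 10 enzymes on the array without EPO (open circles) and the array with EPO (filled circles), 1 array each. Every filled circle lies between 0.055 and 0.44 and every open circle between -1.10 and -0.13, and the line for MTHFD1L, whose difference turns negative with the machinery median subtracted, is the shortest.

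The enzymes of serine synthesis included the pair with the largest differences. PHGDH, which takes the first step and draws carbon out of glycolysis, stood at 0.30 with EPO and -1.10 without EPO. Its difference of 1.40 lay at percentile 98.9 of all genes and 98.1 of machinery genes. PSPH, the phosphatase that releases serine in the last step, stood at 0.25 with EPO and -1.06 without EPO, a difference of 1.31 (2.47-fold). Its probes gave 1.62 and 0.99, so that 1 of the 2 was past 2-fold on its own. PSAT1, the aminotransferase of the middle step, which takes its nitrogen from glutamate, stood at 0.15 with EPO and -0.76 without EPO. Its difference of 0.91 (1.88-fold) was the smallest of the 3 and stayed under 2-fold. A further probe that lists PHGDH together with MZT2B differed by 0.053 between the arrays. That probe was left out because it names 2 genes, and averaging it in gives 0.73 for PHGDH.

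The cytosolic one-carbon enzymes were both past 2-fold. SHMT1, which interconverts serine and glycine in the cytosol, stood at 0.27 with EPO and -0.99 without EPO, a difference of 1.26 (2.40-fold). MTHFD1 carries 3 activities on cytosolic folates and stood at 0.44 with EPO and -0.71 without EPO, a difference of 1.15 (2.21-fold). Its centred value with EPO was the highest of the 10 and lay at percentile 99.7 of all genes on that array. That is a rank of deviations from the unknown baseline and not of expression levels.

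The mitochondrial one-carbon enzymes spread more widely. MTHFD2, a dehydrogenase and cyclohydrolase that is high in many tumours, stood at 0.14 with EPO and -0.95 without EPO, a difference of 1.09 (2.14-fold). Its 2 probes gave 1.33 and 0.86, so its place past 2-fold rests on their mean. ALDH1L2, which oxidises formyl-folate and yields NADPH, stood at 0.35 with EPO and -0.65 without EPO. Its difference of 0.9994 (1.999-fold) fell just short of the threshold. SHMT2, the mitochondrial counterpart of SHMT1, stood at 0.11 with EPO and -0.84 without EPO, a difference of 0.95 (1.93-fold). MTHFD1L, the synthetase that releases formate from mitochondria, stood at 0.20 with EPO and -0.13 without EPO. Its difference of 0.33 (1.26-fold) lay at percentile 71.9 of all genes and 42.8 of machinery genes. On the array without EPO the other 3 mitochondrial enzymes lay between -0.95 and -0.65, whereas MTHFD1L lay nearer to the baseline. A further 4 probes list MTHFD1L together with unnamed loci, and their differences ran from 0.090 to 0.29.

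ASNS makes asparagine from aspartate with nitrogen from glutamine and is a widely used marker of the amino acid response. It stood at 0.055 with EPO and -0.67 without EPO, a difference of 0.72 (1.65-fold), at percentile 86.5 of all genes and 69.3 of machinery genes. ASNS and MTHFD1L thus had the lowest differences of the 10. They are also the 2 of the 7 matched enzymes whose windows held the response element letters shown above. PSPH, SHMT2 and ALDH1L2 had no window to search, and a link between the letters and the differences was not tested.

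In order of their differences the enzymes were PHGDH, PSPH, SHMT1, MTHFD1, MTHFD2, ALDH1L2, SHMT2, PSAT1, ASNS and MTHFD1L. With 1 array per group the spread of a difference is unknown. The only measure of spread at hand is the gap between probes of 1 gene, 0.47 for MTHFD2 and 0.63 for PSPH. Over the 705 genes with several probes its median was 0.18 and its 95th percentile 1.14. It is unknown for the 8 enzymes with 1 probe. The gaps between neighbours in the order ran up to 0.39, between ASNS and MTHFD1L, and up to 0.19 among the other 9. Each was smaller than the gap between the probes of MTHFD2, so the order of neighbours is not resolved. The cytosolic and mitochondrial forms of the hydroxymethyltransferase differed by 0.31, SHMT1 above SHMT2, and MTHFD1 lay 0.82 above MTHFD1L.

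Measured from the authors' unknown baseline, the value without EPO made up between 62.0% (MTHFD1) and 92.4% (ASNS) of the difference in 9 of the 10 enzymes, and 40.1% in MTHFD1L. This was common to the array: over the 3330 genes at least 1.5-fold higher with EPO the median share was 84.8%. Genes as far below the baseline without EPO as the enzymes tended to lie a little above it with EPO. Each enzyme was therefore also set beside the genes within 0.1 of its own value without EPO. Among the 1075 such genes of MTHFD1, the median value with EPO was 0.12, and MTHFD1 lay at percentile 98.9. ALDH1L2 lay at percentile 97.4 of its 1147 genes, PHGDH at 93.8, MTHFD1L at 92.6, SHMT1 at 90.8 and PSPH at 83.7. PSAT1 lay at 61.8, MTHFD2 at 55.8, SHMT2 at 39.9 and ASNS at 26.6. The value of ASNS with EPO was within the range usual for genes equally far below the baseline without EPO. MTHFD1 and ALDH1L2 were near the top of theirs. These genes were matched by deviation from the unknown baseline and not by expression level.

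**Figure D2:**
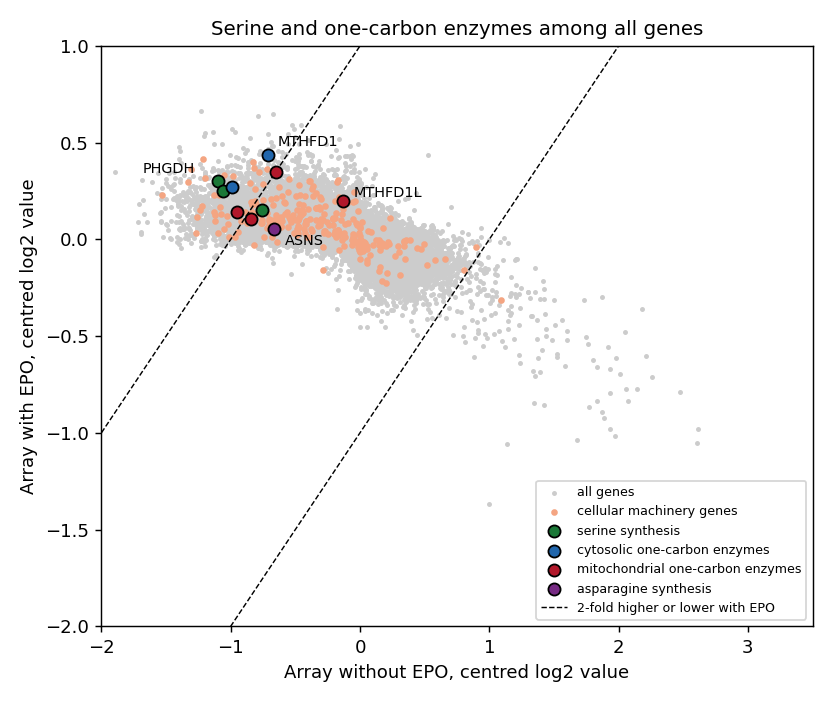
Centred log2 value with EPO (vertical axis) against the value without EPO (horizontal axis), 1 point per gene. All 18355 genes are grey, the 264 machinery genes orange, and the 10 enzymes are coloured by role. Dashed lines mark 2-fold. The enzymes lie at the upper left, 5 of them beyond the 2-fold line, ALDH1L2 on it, and MTHFD1L farthest to the right.

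Paralogs of 2 mitochondrial enzymes, not part of the set, had differences near 0. MTHFD2L, the second mitochondrial dehydrogenase, had a difference of -0.0016, which is 1.10 below MTHFD2. ALDH1L1, the cytosolic relative of ALDH1L2, had a difference of -0.070, which is 1.07 below ALDH1L2. Both lay close to the baseline on both arrays, and whether these paralogs were expressed in the cells cannot be read from centred values.

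Of 77 further genes in 6 lists of the surrounding pathways, 62 were measured. At least 2-fold higher were 13 of them, against 6.2% of all genes and 14.4% of machinery genes. At least 2-fold lower were 0, against 0.899% of all genes. The same shares stand beside the counts of single lists below. The median of the 62 was 0.36, which turned to -0.12 with the machinery median subtracted. Purine synthesis, which takes one-carbon units from formyl-folate, had the highest median of the 6 lists, 0.86 (0.38 with the machinery median subtracted), and 5 of its 12 measured genes were past 2-fold. Among them PRPS1, which makes the ribose phosphate donor, stood at 1.68, PAICS at 1.35, PPAT, the first committed enzyme, at 1.32, ADSL at 1.14 and GART, which uses formyl-folate directly, at 1.05. The nucleotide enzyme IMPDH1 stood at -0.25. Among enzymes of aspartate, glutamate and proline the median was 0.73 (0.25 with the machinery median subtracted), and the proline synthesis enzyme ALDH18A1, at 1.54, was the 1 of 9 measured that was past 2-fold.

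Other enzymes of the folate cycle had a median of 0.15, negative (-0.33) with the machinery median subtracted. Of the 11 measured, 1 was past 2-fold, GGH, which trims the glutamate tail of folates, at 1.54. TYMS, thymidylate synthase, stood at 0.79. Folate and serine transporters had a median of 0.39, and -0.093 with the machinery median subtracted. In that list 3 of 13 were past 2-fold: the neutral amino acid carrier SLC1A4 at 1.21, the mitochondrial folate carrier SLC25A32 at 1.07 and the mitochondrial serine carrier SFXN1 at 1.06. The latter pair supplies the substrates of the mitochondrial one-carbon enzymes.

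Genes of glycine and serine breakdown had the lowest median, -0.17, which turned positive (0.16) with the median of the silent families subtracted. Of the glycine cleavage enzymes measured, GLDC and AMT stood at -0.20 and -0.30, while DLD stood at 0.91 (1.88-fold). The only gene of the 8 measured that was past 2-fold was SRR, serine racemase, at 1.72. The methionine cycle and transsulfuration list had a median of 0.32, and -0.16 with the machinery median subtracted. The genes past 2-fold there were AHCYL1, a relative of adenosylhomocysteinase, at 1.14 and MAT2B, the regulatory subunit of methionine adenosyltransferase, at 1.03, which makes 2 of 9.

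Of the 11 regulators, 2 were at least 2-fold higher and 2 at least 2-fold lower, beside 6.2% and 0.899% of all genes. The lower ones were ATF4 and CEBPB, which stayed lower under each scaling tried. ATF4 stood at -0.70 with EPO and 1.36 without EPO, a difference of -2.06, or 4.17-fold lower with EPO. CEBPB, a partner of ATF4 on the response element, had a difference of -1.48 and was 2.79-fold lower. The other 9 genes in the list of regulators lay between 0.038 and 1.11. EIF2S1, the alpha subunit of the initiation factor whose phosphorylation raises ATF4 translation, stood at 1.11, and the oxidative stress factor NFE2L2 at 1.00 (2.01-fold). MYC stood at 0.067 (-0.41 with the machinery median subtracted). The array measures the ATF4 transcript, and ATF4 is known to be controlled largely in translation.

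The cytosolic aminoacyl-tRNA synthetases, many of them also known as ATF4 targets, had a median of 0.97 (0.49 with the machinery median subtracted), beside 1.05 (0.57) for the 10 enzymes. Of 19 measured, 8 were at least 2-fold higher and 0 at least 2-fold lower, beside 6.2% and 0.899% of all genes. The highest were KARS1 at 1.69, HARS1 at 1.43 and RARS1 at 1.33. The next in size were FARSB at 1.15, WARS1 at 1.12 and EPRS1 at 1.07. SARS1, which charges tRNA with serine, stood at 1.06.

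**Figure D3:**
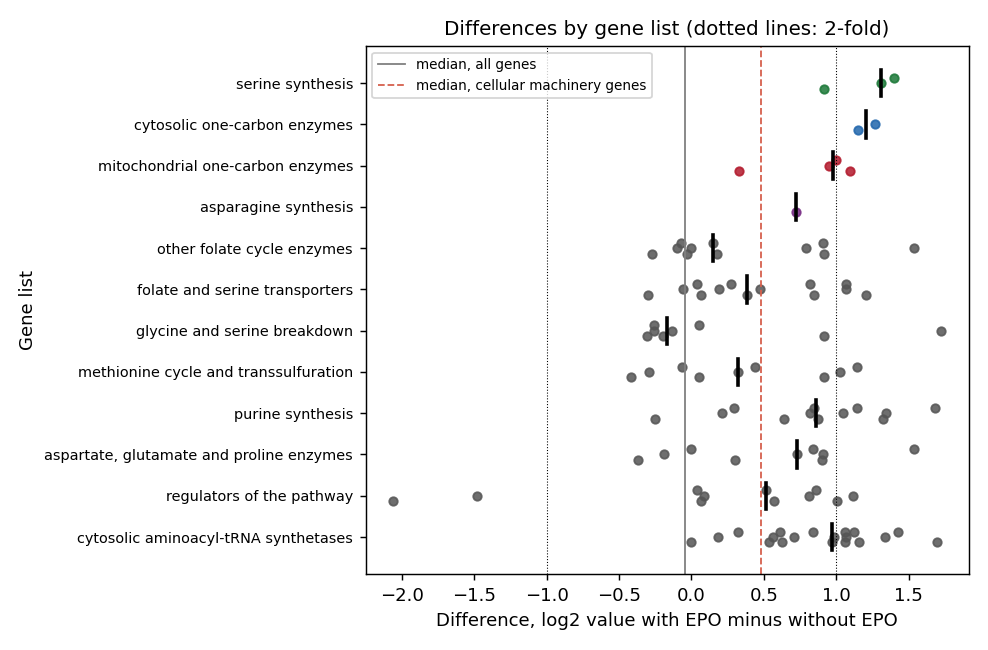
Difference between the arrays (log2 value with EPO minus without EPO, horizontal axis) for each measured gene of 12 lists, with the list median as a black bar. The grey line is the median of all genes (-0.047) and the dashed line that of machinery genes (0.48). The medians of serine synthesis (1.31) and the cytosolic one-carbon enzymes (1.21) lie to the right of both lines, ATF4 and CEBPB are the 2 points farthest to the left, and the medians of the folate cycle, transporter and methionine lists lie between the lines, which makes them negative against the dashed one.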

How the data were processed

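Total RNA of 2 K562 cultures was labelled and hybridised to 1 Affymetrix Gene 1.0 ST array each, per the labels' protocols. The authors deposited log2 values for 28869 probes. No source used here gives the software, normalization, baseline or base of the logarithm, which is read as 2. The 2 values of a probe summed to 0 within 1e-05 in 631 probes (2.19%), and the column medians lie near 0. The values are read as centred, on a baseline that is not the mean of these 2 arrays. The probe medians were -0.0089 with EPO and 0.052 without EPO.

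Probes with 1 gene symbol (19310) were named through the platform annotation, updated by Entrez ID (19279) or by symbol and alias (31) to RefSeq. Probes with several symbols (1752) or none listed (7807) entered no gene comparison, and probes of a gene were averaged. A gene was called past 2-fold at a difference of 1 on the log2 scale. With 1 array per group nothing was tested, and precision is limited by the number of arrays. The members and lists were chosen with earlier results of these data known. The text names all 10 members, up to 6 list genes past 2-fold or else the 2 of largest difference, ATF4, MYC, NFE2L2, MTHFD2L, ALDH1L1 and TYMS, and the 3 protein-coding genes nearest to PHGDH. IMPDH1, GLDC, AMT, DLD and SARS1 were named after their values were seen. Of the listed genes outside the set, 16 were not analysed here. Alternatives were other scalings, thresholds, log bases, probe rules and symbols, and the mean over members. The code for averaging and calling was run on simulated data with set differences and no noise between the arrays. That checks the code and not the reliability of the calls. Python 3.11.15, NumPy 2.4.6 and pandas 2.3.3 were used.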

Additional observations from a re-analysis of the deposited data

How the results depend on the processing

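The scaling between the arrays set the counts. The number of enzymes at least 2-fold higher, 5 as deposited, was 0 with the machinery median subtracted (0.67% of all genes), 9 with the median of silent families subtracted (15% of all genes) and 6 with the median of all genes subtracted (7.17%). It was 3 with the probe of smallest difference (share of all genes not counted), 9 at a threshold of 1.5-fold (18.1% of all genes) and 0 at 3-fold (0.365%). With the values read as natural logarithms it was 9, and as log10 it was 10. Past the same thresholds stood 14.4% and 29.3% of all genes. The median of the enzymes, 1.05, was 0.57 with the machinery median subtracted and 1.37 with that of silent families. MTHFD1L turned to -0.15 with the machinery median subtracted. The number at least 2-fold lower stayed at 0 in each alternative run. Of 70 single enzyme values under the alternatives, 45 moved by less than the median gap between probes of a gene (0.18), 24 moved by more and 1 reversed. Most of these outcomes were fixed beforehand, so the tally does not measure robustness. Each scaling subtracts 1 constant from every enzyme (-0.047 for all genes, 0.48 for machinery, -0.32 for silent families). Picking 1 probe cannot change the 8 enzymes that have only 1. The shares of protein-coding genes and of all genes at least 2-fold higher were 6.61% and 6.2%. No paired analysis was possible because each group has 1 array. Intensities were not analysed here, so signal over background is unknown for every probe.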

Other observations

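The genes nearest to PHGDH over both array values were the respiratory chain subunit NDUFS1, the lipid transfer protein PCTP and the peroxisomal import factor PEX19, at distances between 0.0086 and 0.030 on the log2 scale. With 2 arrays such likeness is common: 73 protein-coding genes lay within 0.1 of PHGDH.

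Across all genes with a promoter window and a measured difference, the 511 that held TGATGNAA had a median difference of -0.098, and 4.50% of them were at least 2-fold higher with EPO. The 13700 that did not hold it had a median of -0.013, and 6.91% of them were at least 2-fold higher. For the E-box letters the medians were 0.11 in 1555 genes with a match and -0.030 in 12656 without, and 7.59% and 6.72% were at least 2-fold higher. These values describe 1 pair of arrays and were not tested.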
